A study of Mus musculus with 80 samples.

Results

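The genes described here carry out the response of cells to low oxygen and the breakdown of glucose to lactate. A list of 36 genes was set by name, with older symbols matched through gene identifiers (Ero1l is now Ero1a), and each gene was read from its brightest probe set. Of the 36, 31 had a probe set naming 1 gene only, of 12393 genes measured that way on the array, and 30 passed a filter on low signal that left 8766 genes to test. Mxd1, an antagonist of MYC, was over the filter on 0 of 80 arrays and was not tested. Bnip3l was not analysed because its probe sets also name another gene, and Ankrd37, Gpi1, Eno1 and Pfkfb4 were not analysed for want of a named probe set.

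Mammary tumours of FVB mice carrying the MMTV-Myc transgene, in which the MMTV promoter drives Myc mainly in mammary epithelium, were profiled on 80 one-colour Affymetrix arrays. All 4 groups carried MMTV-Myc, and they differed in E2F genotype: 20 tumours were wild type, 20 were E2F1 null, 20 were E2F2 null and 20 were E2F3 heterozygous. All were flash frozen once the primary tumour had reached its endpoint, the labels do not state the ages of the mice, and the E2F alleles are not stated to be limited to 1 cell type. In the tumour labels, 53 numbers stand before a hyphen and 46 of the tumours share their number with another of the same genotype. What the number marks is not stated, and it was used as a random block, so p-values measure the spread between tumours as far as that block describes their sharing.

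When oxygen is ample, the prolyl hydroxylases Egln1 and Egln3 mark HIF-1α, the protein of Hif1a, for destruction. When oxygen is short the mark is not made, and HIF-1α pairs with ARNT and binds the letters ACGTG or GCGTG in front of genes for glucose uptake, glycolysis, lactate export, blood vessel growth, collagen modification and removal of mitochondria. HIF-1α is controlled mainly as a protein, so the RNA level of Hif1a need not follow its activity, and MYC also activates several glycolytic genes in tumours.

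The promoters of 5 members are shown: Bnip3, Slc2a1 and Pkm are among the members that followed the others most closely over the tumours, and Pgk1 and Ldha are the closest of the fixed pairs described further on. Each line is the 250 bases before the first RefSeq start (build GRCm38.p6), 5′ to 3′ on the gene's strand, with ACGTG or GCGTG on either strand in capitals; CACGTG, the E-box that MYC and MAX bind, contains ACGTG. Bnip3 lies at chr7:138909507-138909756 on the minus strand, Ldha at chr7:46845554-46845803, Pgk1 at chrX:106186850-106187099, Slc2a1 at chr4:119108495-119108744 and Pkm at chr9:59656326-59656575, all on the plus strand.
Bnip3: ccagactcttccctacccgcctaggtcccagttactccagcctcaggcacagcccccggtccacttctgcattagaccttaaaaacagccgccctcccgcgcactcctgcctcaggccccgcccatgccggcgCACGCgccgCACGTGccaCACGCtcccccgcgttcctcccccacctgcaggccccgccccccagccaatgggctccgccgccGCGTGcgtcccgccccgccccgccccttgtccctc
Ldha: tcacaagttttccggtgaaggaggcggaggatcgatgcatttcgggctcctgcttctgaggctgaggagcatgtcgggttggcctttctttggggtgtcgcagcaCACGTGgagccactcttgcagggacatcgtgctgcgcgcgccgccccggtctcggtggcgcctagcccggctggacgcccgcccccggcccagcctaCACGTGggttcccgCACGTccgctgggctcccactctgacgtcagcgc
Pgk1: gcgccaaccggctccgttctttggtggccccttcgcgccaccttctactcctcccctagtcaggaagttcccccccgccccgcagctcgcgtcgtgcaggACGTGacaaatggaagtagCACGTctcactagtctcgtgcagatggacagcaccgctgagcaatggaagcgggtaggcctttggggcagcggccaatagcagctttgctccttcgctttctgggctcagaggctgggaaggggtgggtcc
Slc2a1: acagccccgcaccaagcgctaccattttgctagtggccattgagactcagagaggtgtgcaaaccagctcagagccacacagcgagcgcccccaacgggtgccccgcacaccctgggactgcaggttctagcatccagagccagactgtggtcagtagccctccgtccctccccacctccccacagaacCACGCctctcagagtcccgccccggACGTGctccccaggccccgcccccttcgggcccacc
Pkm: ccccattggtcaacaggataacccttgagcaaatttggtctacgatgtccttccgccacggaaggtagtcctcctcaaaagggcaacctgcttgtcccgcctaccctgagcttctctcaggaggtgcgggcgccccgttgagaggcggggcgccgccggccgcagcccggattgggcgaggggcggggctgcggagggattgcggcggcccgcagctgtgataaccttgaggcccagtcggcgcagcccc
Bnip3 and Ldha each had 5 matches in this window, Pgk1 and Slc2a1 had 2, and Pkm had 0. Among members not shown, Egln1, which also followed the others closely, had 2 matches. Aldoc, which followed them weakly, had 1, and Hk1, which did not follow them, had 0. Matches were not compared with how closely the members followed each other. A CACGTG reads the same on both strands and counts as 2 matches. Bnip3 held 1 such site and Ldha 2, so their marked sites are fewer than their matches. Of the 36 listed genes, 32 had a promoter in the table (Bnip3l, Ndrg1, Plod2 and Slc2a3 had none there), read as 250 bases before to 50 after the first listed start. ACGTG was present in 19 of the 32 (59.4%) against 26.3% of the promoters of tested genes, GCGTG in 59.4% against 53.05%, and either in 81.2% against 64.8%. The 32 include Ankrd37, Mxd1, Gpi1, Eno1 and Pfkfb4, which were not among the tested genes. The list was chosen by name for the response to low oxygen, so these shares are no test of that response. CACGTG was in 3 of the 32 (9.38%), Hif1a, Bnip3 and Ldha, against 10.5% of tested genes. None of the 32 held TTTCCCGC, TTTCGCGC, TTTGCCGC or TTTGGCGC, forms of the E2F site, on either strand, against 4.38% of tested genes. With every listed start counted, ACGTG was in 23 of 32 members (71.9%) against 30.01%. A match is a description of these letters and not a bound site, and the promoter table does not say which start the tumours used.

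Array intensities were scaled alike by the submitters, with a trimmed mean of 500.2 on every array, and are given here as log2(intensity + 5). Over tested genes, E2F1 null replicate 6 stood apart, with a mean correlation to the others of 0.81 against 0.85 for the next lowest array and a median of 0.91 over the arrays. The targeted genes gave only a partial check of the labels. For E2f1, a probe set averaged 6.38 ± 0.45 (SD, n = 20) in E2F1 null tumours and 6.98 ± 0.44 in wild type, with overlapping ranges, its other probe set averaged 6.95 ± 0.42 and 7.13 ± 0.26, and E2f3 averaged 6.51 ± 0.43 in E2F3 heterozygous tumours and 6.72 ± 0.26 in wild type. The labels do not say where these probe sets lie relative to the altered exons. E2f2 itself was not analysed. Luminal keratins and other luminal markers were present in every group (8 of 9 measured markers over the filter), and 0 of 7 measured T and B cell markers were over it.

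No member differed between genotypes past the threshold. In bulk tumours, fewer cells of a type and less RNA per cell cannot be told apart. In limma with Benjamini-Hochberg adjustment over all 8766 genes, 0 of 30 members had an adjusted p under 0.05 in any of the 6 pairwise comparisons or in the test over all 4 genotypes. The background was low too: 0.0456% of genes were called in E2F1 null against wild type, 0.0228% in E2F2 null against wild type and 0% in E2F3 heterozygous against wild type. Between the altered genotypes, 0.16% were called for E2F1 null against E2F2 null, 0.0799% for E2F1 null against E2F3 heterozygous and 0.0342% for E2F2 null against E2F3 heterozygous, and 0.148% differed over the 4 genotypes. At an unadjusted p under 0.05, 0 members passed in 6 of the 7 tests, where the shares of all genes were 1.29%, 6.14% and 0.662% for the 3 comparisons with wild type in that order, 3.39% for E2F1 null against E2F3 heterozygous, 7.53% for E2F2 null against E2F3 heterozygous and 4.24% over the 4 genotypes. In the remaining test, E2F1 null against E2F2 null, 7 members (23.3%) had an unadjusted p under 0.05 against 9.58% of all genes. These unadjusted counts moved with the fit. With no block, 11 members (36.7%) passed in E2F1 null against E2F2 null against 12.3% of genes, and over the other alternatives 7 or 8 did. In E2F1 null against E2F3 heterozygous, 1 member passed without E2F1 null replicate 6 (6.35% of genes). With the mean of all probe sets 1 passed there (3.39%), and 2 did with quantile normalization (3.66%). With 1 mean per label number 3 did (1.68%). In E2F1 null against wild type 1 passed with 1 mean per label number (1.35%). In E2F2 null against wild type 1 did with the mean of all probe sets (5.82%). Over the 4 genotypes 2 passed with no block (6.94%). There 1 passed with quantile normalization (4.06%) and 1 with 1 mean per label number (2.87%). Genotype accounted for a median of 4.15% of a member's variance over the tumours (0.00723% for Vegfa to 10.1% for Ldha), beside 3.57% for all tested genes.

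Among the oxygen sensors, Hif1a ranged from 10.64 through a median of 11.22 to 12.06 in wild type, from 10.37 through 11.12 to 12.53 in E2F1 null, from 10.66 through 11.05 to 11.74 in E2F2 null and from 10.60 through 11.14 to 11.65 in E2F3 heterozygous tumours. The 4 groups overlapped throughout, and E2F1 null replicate 6 held the highest value of all 80. The difference from wild type was 0.00 (SE 0.11) for E2F1 null, -0.09 (SE 0.11) with E2F2 null and 0.01 (SE 0.11) for E2F3 heterozygous tumours. Egln1, the main HIF prolyl hydroxylase, ran from 8.98 to 10.54 over all tumours (SD 0.37). Egln3, an inducible hydroxylase, varied far more, from 7.41 to 12.27 over the 80 tumours (a 29.0-fold span, SD 1.08), with group medians of 10.48 in wild type, 10.93 with E2F1 null, 10.66 with E2F2 null and 10.35 with E2F3 heterozygous. The 4 groups overlapped, and wild-type tumours had the narrowest range of Egln3, from 8.94 to 11.58. It ran from 8.30 to 12.27 in E2F1 null, 7.41 to 12.06 in E2F2 null and 7.99 to 12.21 in E2F3 heterozygous tumours.

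Of the genes acting on mitochondria, Bnip3 encodes a receptor for their removal and Higd1a a small protein of the respiratory chain. Pdk1 encodes a kinase that inhibits pyruvate dehydrogenase. Bnip3 ran from 8.86 through 10.80 to 12.47 in wild type, from 8.59 through 10.43 to 11.99 in E2F1 null, from 9.13 through 11.08 to 13.002 in E2F2 null and from 9.42 through 10.81 to 11.93 in E2F3 heterozygous tumours. Of the 20 E2F1 null tumours, 12 lay below the wild-type median, and the groups overlapped over most of their range. Against wild type the difference was -0.47 (SE 0.29, limma p = 0.104, adjusted p = 1.00) in E2F1 null, 0.23 (SE 0.30) with E2F2 null and -0.04 (SE 0.30) with E2F3 heterozygous. Higd1a differed by -0.22 (SE 0.20), 0.16 (SE 0.21) and 0.03 (SE 0.21) in the same order. Pdk1 ranged from 7.595 through 9.62 to 10.18 in wild type and from 9.05 through 9.83 to 10.45 in E2F2 null tumours. The lowest 5 wild-type tumours lay below every E2F2 null tumour, the rest overlapped, and the difference of 0.31 (SE 0.17, limma p = 0.0666, adjusted p = 0.787) did not pass.

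Among genes for secreted factors and growth control, Vegfa, which drives the growth of blood vessels, had nearly the same centre in the 4 genotypes: medians of 9.05 in wild type, 9.03 with E2F1 null, 8.94 with E2F2 null and 9.01 with E2F3 heterozygous. Individual tumours spanned 8.16 to 10.72, the highest being E2F3 heterozygous replicate 4, so its spread lay within the groups. Adm, a vasodilator peptide, reached 10.02 in the same tumour and was over the filter (a log2 level of 6.31) on 50 of 80 arrays, so its low end, down to 4.48, is not well measured. Ndrg1, a differentiation gene also called a metastasis suppressor, ranged from 9.03 through 11.30 to 12.91 in wild type, from 9.37 through 10.97 to 12.81 in E2F1 null, from 9.54 through 11.51 to 13.26 in E2F2 null and from 10.11 through 11.22 to 12.78 in E2F3 heterozygous tumours. Its differences from wild type were -0.25 (SE 0.31), 0.53 (SE 0.32) and 0.37 (SE 0.32). Ddit4, an inhibitor of mTOR signalling, differed from wild type by -0.22 (SE 0.19), -0.07 (SE 0.20) and -0.01 (SE 0.20).

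Collagen is matured by the prolyl 4-hydroxylases P4ha1 and P4ha2 and the lysyl hydroxylase Plod2, and Ero1a takes part in forming disulphide bonds in the endoplasmic reticulum. P4ha1 ranged from 7.45 through 8.04 to 9.28 in wild type, 6.69 through 8.29 to 9.56 in E2F1 null, 7.15 through 8.10 to 9.52 in E2F2 null and 6.84 through 8.09 to 10.11 in E2F3 heterozygous tumours, so the medians lay close together and the extremes fell in the altered genotypes. P4ha2 differed from wild type by -0.37 (SE 0.30), -0.03 (SE 0.31) and 0.11 (SE 0.31), in the same order of genotypes. For E2F2 null the fit, which weights tumours that share a label number, and the plain means (7.74 against 7.70 in wild type) differ in sign. Plod2 differed by -0.05 (SE 0.31), -0.20 (SE 0.32) and -0.06 (SE 0.32). Ero1a differed by -0.19 (SE 0.21), 0.36 (SE 0.21) and 0.17 (SE 0.21). The lowest value of P4ha1, P4ha2 and Plod2 alike was in E2F1 null replicate 13.

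For transport and pH, Slc2a1 and Slc2a3 encode the glucose transporters GLUT1 and GLUT3, Slc16a3 a lactate exporter and Car9 a carbonic anhydrase at the cell surface. Slc2a1 ranged from 10.79 through 11.33 to 12.11 in wild type, 10.57 through 11.18 to 12.23 in E2F1 null, 10.42 through 11.34 to 12.50 in E2F2 null and 10.66 through 11.50 to 12.53 in E2F3 heterozygous tumours. E2F2 null tumours reached both the lowest level and nearly the highest, and the differences from wild type were -0.18 (SE 0.16), -0.02 (SE 0.17) and 0.14 (SE 0.17). Slc2a3 was over the filter on only 24 of 80 arrays and Slc16a3 on 42, and both differed from wild type by at most 0.29 in size. Car9 differed by -0.09 (SE 0.21), 0.20 (SE 0.21) and 0.11 (SE 0.21).

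**Figure D1:**
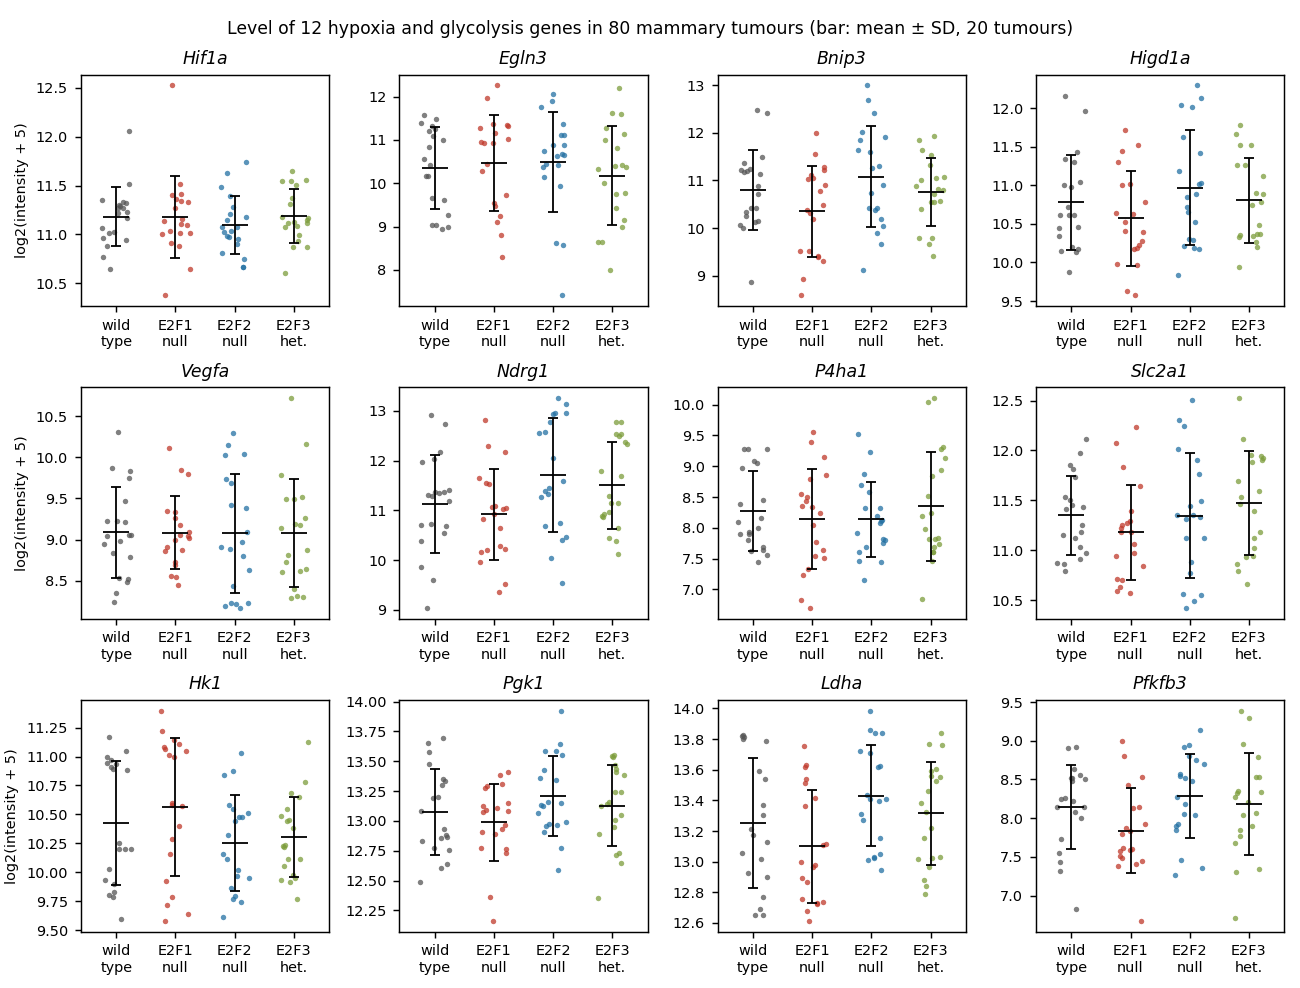
Level of 12 genes in each of the 80 tumours by genotype (dots, log2 of intensity + 5), with mean ± SD (black, 20 tumours each); the axes differ between genes. In each gene the 4 genotypes overlap, as for Bnip3, which runs from 8.59 to 11.99 in E2F1 null and from 8.86 to 12.47 in wild type.

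The glycolytic members ran from hexokinase to lactate dehydrogenase, with gaps. Gpi1 and Eno1 were not measured, and Gapdh, another enzyme of the pathway, is not on the list and was not tested. Ldha, which turns pyruvate into lactate, ranged from 12.65 through 13.19 to 13.83 in wild type, 12.61 through 12.99 to 13.76 in E2F1 null, 12.95 through 13.41 to 13.98 in E2F2 null and 12.79 through 13.35 to 13.84 in E2F3 heterozygous tumours. The lowest E2F2 null tumour stood near the E2F1 null median, yet the upper ends of the groups overlapped. Pgk1, the first enzyme of the pathway to yield ATP, had medians of 13.01 in wild type, 13.08 with E2F1 null, 13.14 with E2F2 null and 13.15 with E2F3 heterozygous, and differed from wild type by -0.09 (SE 0.11), 0.12 (SE 0.11) and 0.06 (SE 0.11). Pkm, pyruvate kinase, differed by -0.18 (SE 0.12), 0.04 (SE 0.13) and 0.04 (SE 0.13). Hk1, the hexokinase of most tissues, was 1 of 4 members with a higher fitted mean in E2F1 null than in wild-type tumours (0.14, SE 0.16). With no block, 3 members were higher. Hk2, the inducible hexokinase, differed by -0.21 (SE 0.14). The other glycolytic members, Pfkl and Pfkp (phosphofructokinase), Aldoa and Aldoc (aldolase), Tpi1 and Pgam1, differed from wild type by -0.21 to 0.13 over the 3 altered genotypes. Pfkfb3, which makes the activator of phosphofructokinase, ranged from 6.83 through 8.23 to 8.91 in wild type and from 6.67 through 7.71 to 8.998 in E2F1 null tumours. Of the 20 E2F1 null tumours, 16 lay below the wild-type median of Pfkfb3, and the difference was -0.30 (SE 0.19, limma p = 0.109, adjusted p = 1.00).

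**Figure D2:**
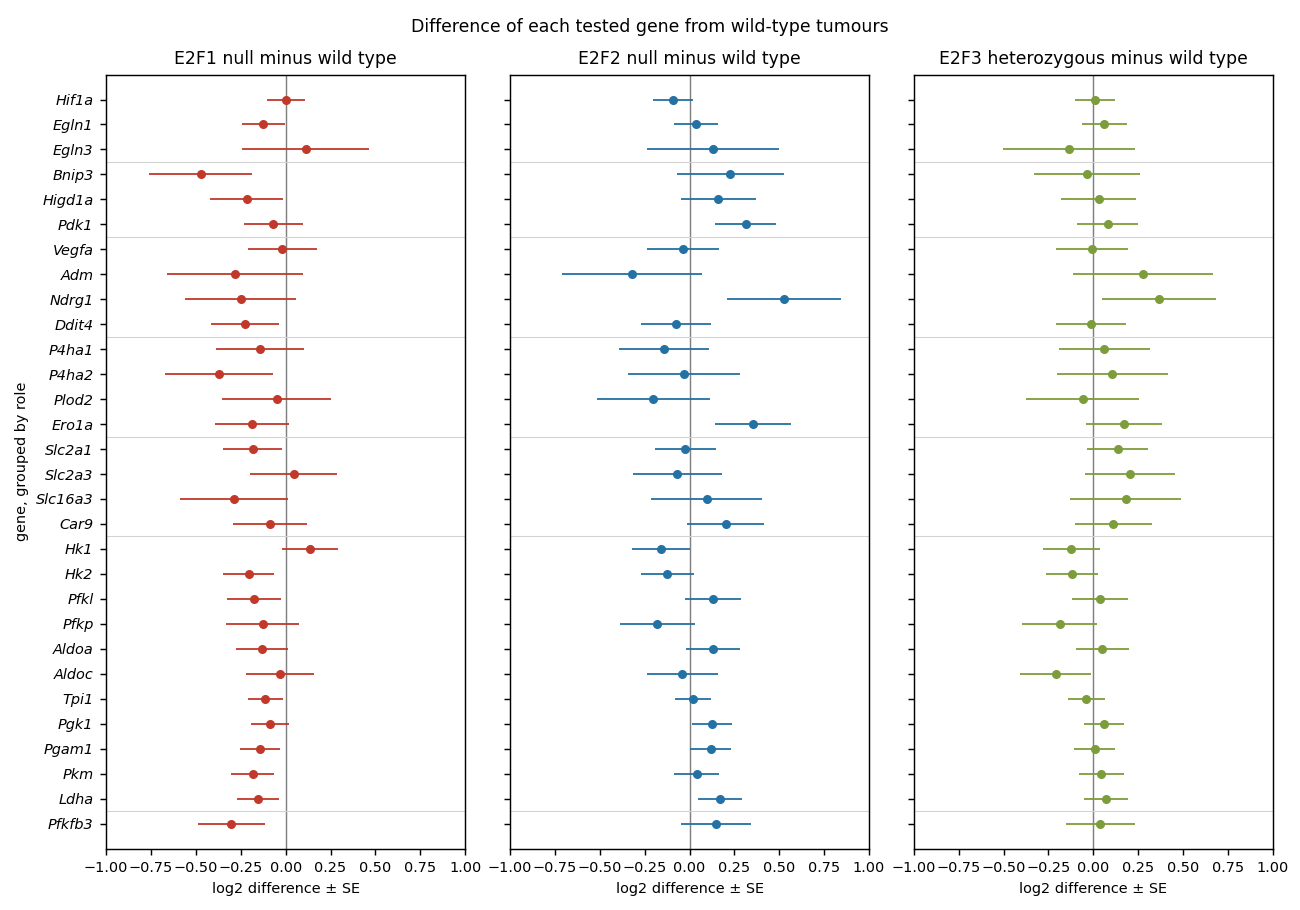
Log2 difference (x axis) of each tested gene (y axis, grouped by role) between an altered genotype and wild type, dots with the SE of the limma fit (20 tumours a genotype, shared wild-type tumours). In the E2F1 null panel 26 of 30 dots lie left of 0, the farthest being Bnip3 at -0.47.

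Counted as a list, the fitted mean was below wild type for 26 of 30 members in E2F1 null tumours (median log2 difference -0.14), where 46.7% of all genes were below and the median was 0.01. The direction was shared by all 3 mitochondrial genes, all 4 secreted and growth control genes, all 4 genes of collagen modification and folding, 3 of 4 transport genes and 10 of 11 glycolytic enzymes, but by only 1 of 3 oxygen sensing genes (median 0.00). Without E2F1 null replicate 6, the array that stood apart, 27 of 30 were below (median -0.13). In E2F2 null tumours 13 of 30 members were below wild type (median 0.04; all genes 53.7%, median -0.01), and in E2F3 heterozygous tumours 10 of 30 (median 0.04; all genes 46.8%, median 0.01). These counts describe genes that vary together, none of which passed singly, and the 3 comparisons share the wild-type tumours. Beside the E2F1 null values, the 4 basal and myoepithelial markers over the filter were also lower than wild type (median -0.46), as were 8 of 10 fibroblast (-0.08), 7 of 10 macrophage (-0.03), 6 of 8 luminal (-0.04) and 4 of 6 neutrophil markers (-0.19), while 10 of 12 endothelial (0.05), 6 of 9 skeletal muscle (0.09) and 6 of 9 proliferation markers (0.04) were higher. Summed basal intensities were 782 to 22696 in E2F1 null and 1308 to 17247 in wild-type tumours. Their part in the result was not tested.

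E2F1 null and E2F2 null tumours were compared directly in the same fit, and 22 of 30 members were lower in E2F1 null (median -0.19; all genes 43.9% lower, median 0.02), and 22 also without E2F1 null replicate 6. Ldha differed by -0.32 (SE 0.12, limma p = 0.00926), and 14 of 20 E2F1 null tumours lay below the E2F2 null median. Ero1a differed by -0.54 (SE 0.21, p = 0.0121) with 16 of 20 below, and Ndrg1 by -0.78 (SE 0.32, p = 0.0159) with 14 of 20 below. These are the members of lowest p, and their adjusted p-values of 0.430, 0.443 and 0.443 did not pass. Bnip3 (-0.70, SE 0.30), Pfkfb3 (-0.45, SE 0.19), Pdk1 (-0.38, SE 0.17) and Pgam1 (-0.26, SE 0.11) had unadjusted p-values of 0.0206 to 0.0265. Beside these values, all 12 endothelial markers had a higher mean in E2F1 null than in E2F2 null tumours (median 0.22, 3 with an unadjusted p under 0.05), with summed intensities of 1085 to 6067 and 1015 to 2255, as did 5 of 6 neutrophil (0.27) and 7 of 10 macrophage markers (0.11). A lower mean was seen for 8 of 9 proliferation (-0.16), 3 of 4 basal (-0.30) and 6 of 8 luminal markers (-0.12). Their part in the result was not tested. Against E2F3 heterozygous tumours, which share the E2F1 null tumours with the comparison just given, 25 of 30 members were lower in E2F1 null (median -0.19; all genes 49.2% lower), led by Ndrg1 at -0.62 (SE 0.32, limma p = 0.0536, adjusted p = 0.995). Most marker lists were lower in E2F1 null tumours in this comparison as well: basal and myoepithelial 4 of 4 (median -0.95), neutrophil 6 of 6 (-0.77), skeletal muscle 9 of 9 (-0.50), fibroblast 10 of 10 (-0.46), macrophage 9 of 10 (-0.14) and luminal 7 of 8 (-0.13), while endothelial markers were lower in 6 of 12 (median 0.00), proliferation markers in 4 of 9 (median 0.00) and adipocyte markers in 1 of 4 (median 0.07). Their part in the result was not tested. Between E2F2 null and E2F3 heterozygous tumours 14 of 30 were lower in E2F2 null, with the lowest p for Adm (-0.60, SE 0.40, p = 0.142, adjusted p = 0.683).

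The intervals show what 20 tumours a group could resolve. The 95% interval of the difference from wild type lay within 1 log2 unit either way for 28 of 30 members with E2F1 null, 28 with E2F2 null and 29 with E2F3 heterozygous tumours. For Ldha in E2F1 null tumours it ran from -0.39 to 0.08, and for Bnip3 from -1.04 to 0.10.

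The members varied widely between tumours of 1 genotype: their median SD within a genotype was 0.54 to 0.59, beside 0.33 to 0.37 for all tested genes. The SD over the 80 tumours had a median of 0.58 over the 30 members, beside 0.36 over all tested genes. Among members over the filter on all 80 arrays, Egln3 (1.08), Ndrg1 (1.02), Plod2 (0.93) and Bnip3 (0.92) varied most, and Tpi1 (0.30), Hif1a (0.32) and Pgk1 (0.34) least. The SDs of Adm (1.16), P4ha2 (0.95), Slc16a3 (0.93) and Slc2a3 (0.74) rest in part on values under the filter. Hif1a thus varied less than the typical tested gene, at the 41.8th percentile, whereas Egln3 stood at the 92.9th. Pairs of tumours with the same label number differed in a member by a median of 0.90 times as much as other pairs of the same genotype, with the ratio under 1 for 21 of 30 members and lowest for Ndrg1 (0.61).

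Over the tumours the members varied together. Of the 435 pairs of members, 149 (34.3%) had a Pearson's r over 0.5, against 3.53% of all 38416995 pairs of tested genes, and the median r was 0.39 against 0.01. Both are descriptions over 80 tumours whose arrays were scaled alike and some of which share a label number. The closest pairs joined mitochondrial and glycolytic genes: Bnip3 and Higd1a (r = 0.90), Pgam1 and Ldha (0.87), Higd1a and Pgam1 (0.86), Bnip3 and Pgam1 (0.86), Pgk1 and Pkm (0.85), Pgk1 and Pgam1 (0.85), and Bnip3 and Aldoa (0.85). With 1 mean per label number (53 points) the median r over the 435 pairs was 0.32, with genotype means removed 0.38 and with quantile normalization 0.40. Other probe sets of a gene could be compared for some members: 20 members had 34 other probe sets, and the 29 over the filter correlated with the brightest at a median r of 0.92, lowest at 0.44 for Hif1a.

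**Figure D3:**
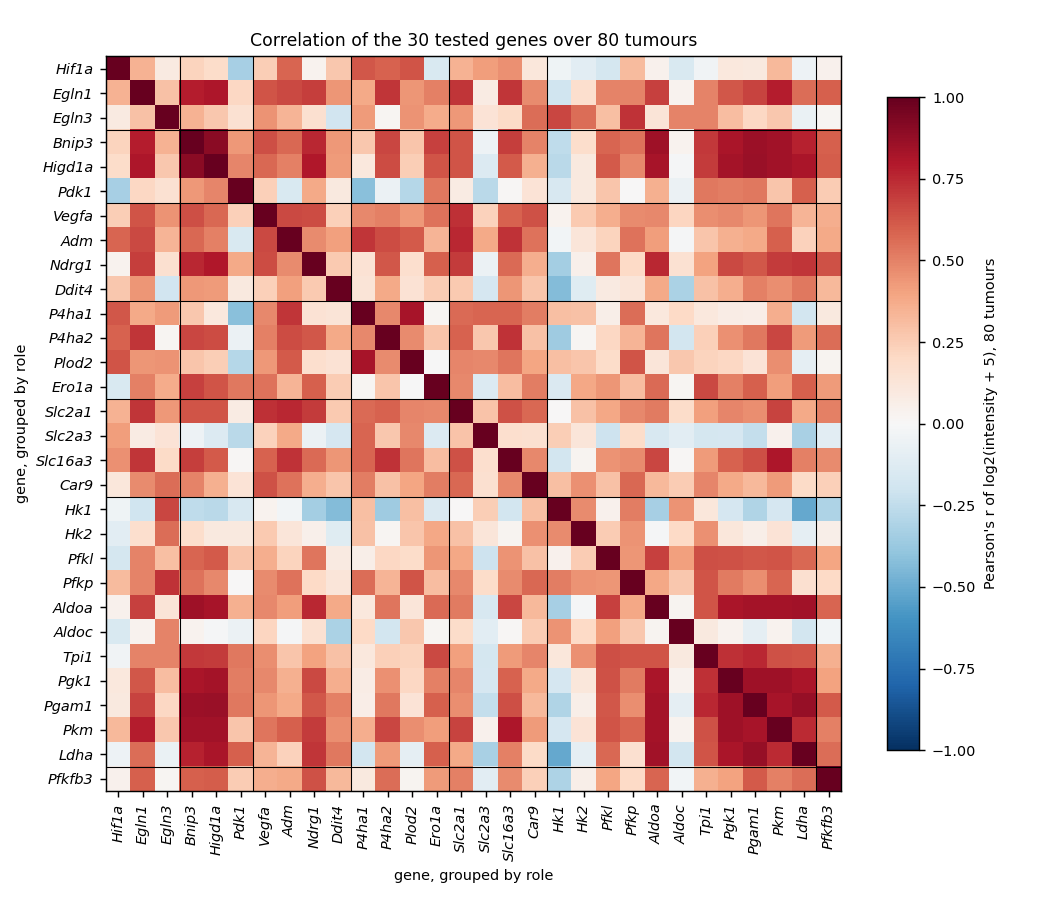
Pearson's r (colour) between the log2 levels of the 30 tested genes over 80 tumours, genes grouped by role on both axes with black lines between roles. Red blocks join Bnip3 and Higd1a (r = 0.90) with Aldoa, Pgk1, Pgam1, Pkm and Ldha, while the rows of Hk1, Slc2a3 and Aldoc are mostly pale or blue, as for Hk1 and Ldha (r = -0.51).

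Each member was set against the mean of the other 29. Pkm and Bnip3 followed that mean most closely (r = 0.85 each), then Egln1 (0.83), Slc2a1 (0.82) and Higd1a (0.79), and 22 of 30 members had an r over 0.5. Hk1 did not follow it (r = -0.01), and Slc2a3 (0.14), Aldoc (0.14), Pdk1 (0.19), Hk2 (0.31), Ddit4 (0.34) and Hif1a (0.35) followed it weakly. Hk1 went with Egln3 (r = 0.66) and Pfkp rather than with the end of the pathway, and its lowest correlation was with Ldha. Pdk1 paired with Ldha (0.60) but ran against P4ha1 (-0.42) and Hif1a (-0.34). Hif1a instead varied with Plod2 (0.63), P4ha1 (0.62), P4ha2 (0.59) and Adm (0.58), and P4ha1 and Plod2 were among the closest pairs (0.82). Glycolytic enzymes as a group had a median r of 0.45 among themselves (25 of 55 pairs over 0.5) and 0.34 with the other roles.

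In all, 10 pairs of paralogues or of genes with adjoining roles were tested over 53 points, 1 mean per label number, with two-sided permutation tests of 100000 resamples adjusted over the 10 pairs. The pairs were fixed before these tests, but with earlier results of these data known. The other pairs, Bnip3 with Bnip3l and Pfkfb3 with Pfkfb4, were not analysed because 1 partner was not measured. Pgk1 and Ldha varied together (r = 0.85, p = 1e-05; Spearman's rho = 0.85, p = 1e-05), where 1e-05 is the smallest p that these permutations can give, and r was 0.84 without the 2 points farthest from the median of Pgk1. Within genotypes, r was 0.97 in wild type, 0.66 with E2F1 null, 0.84 with E2F2 null and 0.80 with E2F3 heterozygous. Slc2a1 and Slc16a3, glucose uptake and lactate export, gave r = 0.61 (p = 1e-05; rho = 0.63, p = 1e-05; 0.59 without 2 points), and 0.48, 0.57, 0.81 and 0.48 in the genotypes in the same order. Pdk1 and Ldha gave r = 0.60 (p = 1e-05; rho = 0.64, p = 1e-05; 0.55 without 2 points), with 0.75, 0.44, 0.32 and 0.39 within genotypes.

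Of the paralogues, P4ha1 and P4ha2 gave r = 0.58 (p = 3e-05; rho = 0.57, p = 2e-05; 0.54 without 2 points), with 0.52, 0.60, 0.57 and 0.67 within genotypes. The phosphofructokinases Pfkl and Pfkp gave r = 0.49 (p = 0.00021; rho = 0.53, p = 6e-05; 0.52 without 2 points), and 0.45, 0.61, 0.44 and 0.64 within genotypes. The hexokinases Hk1 and Hk2 gave r = 0.48 (p = 0.00022; rho = 0.54, p = 5e-05; 0.52 without 2 points), and 0.55, 0.67, 0.56 and 0.26 within genotypes. All 6 of these pairs had an adjusted p between 3.33e-05 and 0.000367 for r. The glucose transporters Slc2a1 and Slc2a3 gave r = 0.28 (p = 0.0409, adjusted p = 0.0584; rho = 0.36, p = 0.0093, adjusted p = 0.0133; 0.23 without 2 points), so the test of ranks passed and that of r did not. Within genotypes their r was 0.48, 0.18, 0.21 and 0.40.

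The remaining 3 pairs did not pass. Egln1 and Egln3, both HIF hydroxylases, gave r = 0.05 (p = 0.697; rho = -0.00, p = 0.98; 0.05 without 2 points), with -0.40 in wild type and 0.34, 0.25 and 0.16 in the altered genotypes. The aldolases Aldoa and Aldoc gave r = 0.08 (p = 0.567; rho = 0.04, p = 0.772; 0.03 without 2 points), with -0.10, -0.12, 0.62 and 0.40 within genotypes. Hif1a and its target Vegfa gave r = 0.18 (p = 0.205; rho = 0.25, p = 0.0678), with r = 0.31 without the 2 points farthest from the median of Hif1a, and r = -0.10, 0.06, 0.46 and 0.60 within genotypes. Adjusted p-values of these pairs were 0.256 to 0.697 for r and 0.0848 to 0.98 for rho. Differences in r between genotypes were not tested.

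Averaging the 30 centred levels gave 1 value for each tumour. It ran from -0.50 through a median of -0.03 to 0.67 in wild type, from -0.81 through -0.13 to 0.74 in E2F1 null, from -0.71 through 0.04 to 0.83 in E2F2 null and from -0.62 through 0.11 to 0.94 in E2F3 heterozygous tumours. High and low tumours occurred in each genotype, and the ranges overlapped almost fully. In E2F3 heterozygous replicate 4, the highest, 29 of 30 members were above their own mean, and in E2F1 null replicate 13, the lowest, 4 were. The SD was 0.28 in wild type, 0.35 with E2F1 null, 0.49 with E2F2 null and 0.37 with E2F3 heterozygous, and 0.23, 0.27, 0.38 and 0.32 over label-number means.

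**Figure D4:**
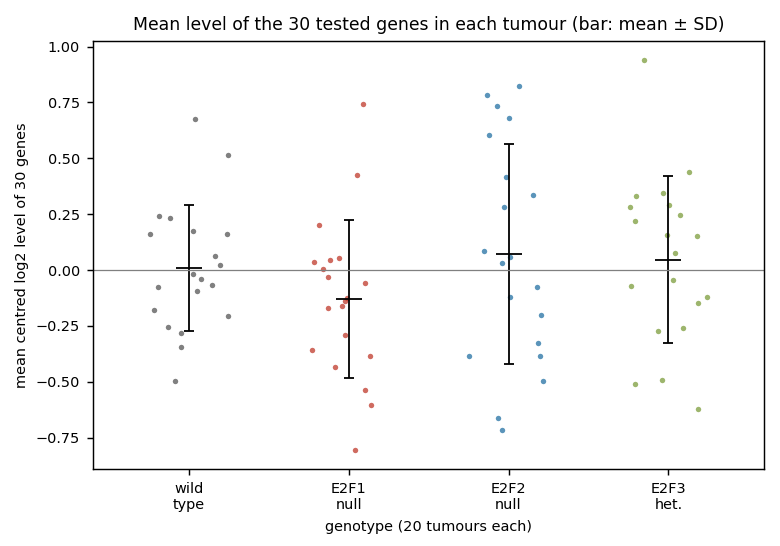
Mean centred log2 level of the 30 tested genes (y axis) in each tumour (dots) by genotype, with mean ± SD over 20 tumours. E2F2 null tumours spread from -0.71 to 0.83 (SD 0.49) and wild-type tumours from -0.50 to 0.67 (SD 0.28).

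Within E2F2 null tumours, 58.2% of the pairs of members had an r over 0.5, against 5.99% of all gene pairs in the same tumours. The shares were 25.7% against 9.26% in wild type, 29.7% against 6.53% in E2F1 null and 35.2% against 6.44% in E2F3 heterozygous tumours. The median r of the members was 0.56 in E2F2 null and 0.27, 0.30 and 0.38 in the other genotypes. It stayed between 0.54 and 0.61 in E2F2 null tumours when each of the 11 label numbers was left out in turn, and was 0.16 to 0.30 in wild type, 0.24 to 0.34 in E2F1 null and 0.31 to 0.43 in E2F3 heterozygous tumours. Over label-number means it was 0.52 in E2F2 null (11 points), 0.19 in wild type (16), 0.26 in E2F1 null (16) and 0.43 in E2F3 heterozygous tumours (10). Whether the genotypes differ in this was not tested. Of 9 marker lists with over 1 gene tested, 7 had their smallest SD in E2F2 null tumours, for example the endothelial (0.29 against 0.49 in wild type) and fibroblast lists (0.78 against 1.16), and their part in the result was not tested.

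Other genes followed the members. Among 8736 tested genes that were not members, 39 (0.446%) had an r over 0.5 with the mean level of the members. The 10 most alike were Fam162a (0.84), Pgm1 (0.80), Gys1 (0.75), Ak4 (0.73), Mgarp (0.69), Isg20 (0.68), Prelid1 (0.67), Pgf (0.66), Aire (0.65) and Slc30a9 (0.65), and Fam162a had an r of 0.78 to 0.92 within each genotype. Pgm1 interconverts glucose phosphates, Gys1 makes glycogen, Ak4 is a mitochondrial adenylate kinase and Pgf is a relative of Vegfa. The 5 most opposed were Mtarc2 (-0.67), Ppt1 (-0.66), Dhrs4 (-0.63), Arsg (-0.63) and Acad9 (-0.63), of which Ppt1 and Arsg encode lysosomal enzymes and Acad9 a mitochondrial dehydrogenase.

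The wider pathway was read from 3 lists of 65 genes in all, 52 of which were tested. In each of the 6 pairwise comparisons 0 of the 52 had an adjusted p under 0.05 in limma. At an unadjusted p under 0.05, 3 (5.77%) passed in E2F1 null against E2F2 null, where 9.58% of all genes did, 1 (1.92%) in E2F1 null against E2F3 heterozygous, where 3.39% did, and 0 in the other 4. These shares do not exceed those of all genes. The 3 of lowest p were Stc2, a secreted glycoprotein (-0.50, SE 0.20, adjusted p = 0.443), Mif, a cytokine (-0.23, SE 0.09, adjusted p = 0.443), and Gbe1, the glycogen branching enzyme (-0.27, SE 0.13, adjusted p = 0.516). Of 28 other hypoxia-inducible genes, 22 were below wild type in E2F1 null tumours (median -0.08), as were 6 of 10 HIF pathway regulators (median -0.04) and 7 of 14 other genes of glycolysis and lactate (median 0.00). Of all genes, 46.7% were below (median 0.01). None of the genes in these lists passed singly, and the counts are a description only. The regulator of lowest p in any comparison was Siah2, a ubiquitin ligase for the hydroxylases (E2F2 null against wild type -0.41, SE 0.21, limma p = 0.0601, adjusted p = 0.787).

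Over the tumours, the lists followed the members unevenly. Other hypoxia-inducible genes had a median r of 0.27 with the members' mean, 5 of 28 over 0.5, against a median of -0.04 for all other tested genes. The list ran from Fam162a down to Ppp1r3c, a glycogen-targeting phosphatase subunit (-0.58). Other glycolysis genes had a median of 0.07, with Pgm1 and the neuronal-type enolase Eno2 (0.58) over 0.5 and Pdk2, a relative of Pdk1, lowest (-0.40). HIF regulators had a median of 0.13 and none over 0.5, Cited2, an inhibitor of HIF that HIF induces, being highest (0.47). Arnt had an r of 0.20 and Vhl of -0.00.

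Marker levels moved with some members. Hif1a correlated at 0.59 with the fibroblast and matrix list, 0.55 with the basal and myoepithelial list, 0.54 with the endothelial, 0.47 with the macrophage and 0.44 with the neutrophil list. Its r with Myc, whose level ran from 12.48 to 13.92 over the tumours, was -0.69. By ranks (Spearman's rho) these values were 0.48, 0.54, 0.40, 0.35, 0.38 and -0.63 in the same order. E2F1 null replicate 6, the array that stood apart, held the highest Hif1a level, and these correlations were not computed without it. P4ha2 had its highest r with the basal (0.59) and neutrophil (0.51) lists. P4ha2, Slc2a3 and P4ha1 also had positive correlations with the fibroblast list (0.45, 0.39 and 0.26), and P4ha1 and Adm negative ones with Myc (-0.56 and -0.52). Tpi1 (-0.54), Egln3 (-0.54), Pdk1 and Hk1 (both -0.43) ran against the fibroblast list, and Pdk1 ran with Myc (0.49) and with the proliferation list (0.53). Over all 30 members, 15 had an r under -0.3 with the endothelial list (all genes 21.7%) and 2 over 0.3 (22.6%), and 12 were under -0.3 with the macrophage list (21.0%) and 1 over 0.3 (22.9%). With Myc 7 were under -0.3 (19.3%) and 1 over 0.3 (19.6%). The mean of the members had an r of -0.25 with the endothelial list, -0.27 with the macrophage list, -0.12 with the fibroblast list, 0.19 with the luminal list and -0.21 with Myc. The part of cell content in the members' levels was not tested.

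**Figure D5:**
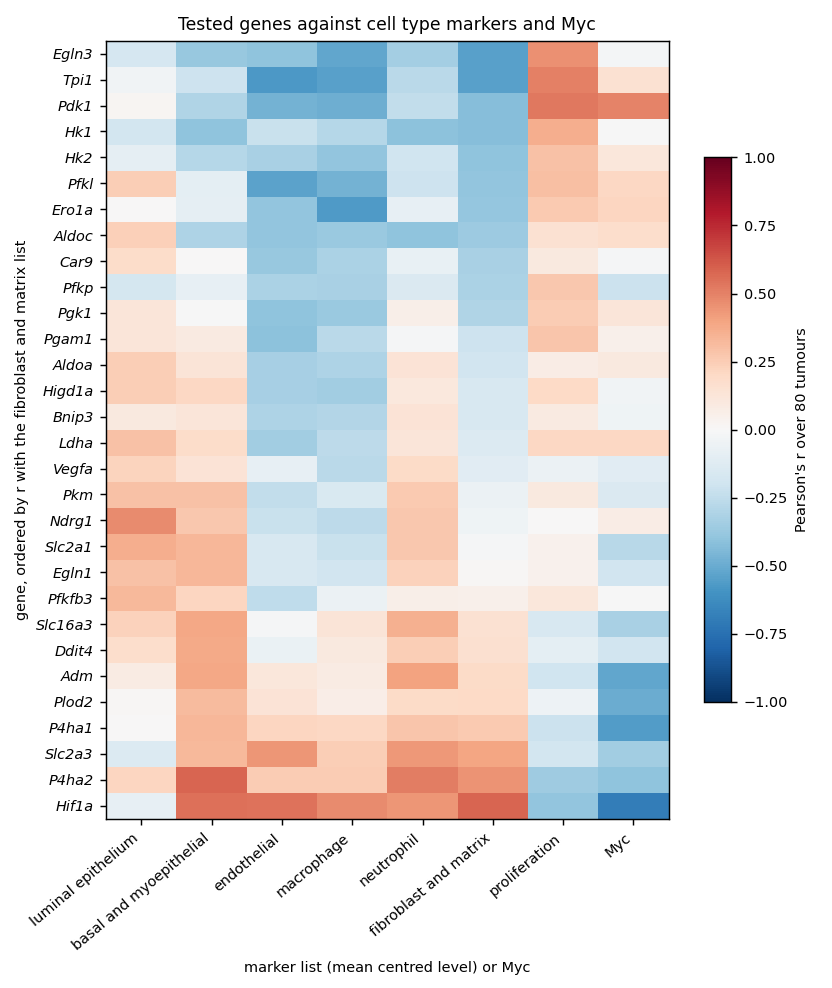
Pearson's r (colour, 80 tumours) of each tested gene (y axis, ordered by its r with the fibroblast and matrix list) with the mean centred level of 7 marker lists and with Myc (x axis). Hif1a, at the bottom, has r = 0.59 with the fibroblast list and -0.69 with Myc, while Pdk1, near the top, has -0.43 and 0.49.

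Technical measures moved with some members too. Of 30 members, 13 had an r under -0.3 with the median log2 intensity of the array (20.4% of all genes), Pdk1 lowest at -0.62, and 3 were over 0.3 (27.6%), Slc2a3 highest at 0.42. The mean of the members had an r of -0.25 with the array median. With the 3′ to 5′ ratio of control probe sets, a rough sign of RNA integrity, its r was 0.39 for Gapdh and -0.01 for beta-actin. Gapdh is itself a glycolytic gene, so its ratio is not independent of the members' pathway. The log2 of the Gapdh ratio was below 0 in every tumour, from -0.50 to -0.02. The part of array intensity and of RNA integrity in the members' correlations was not tested. A member correlated with the mean of the non-member genes of its chromosome at a median r of -0.07, beside 0.18 for all tested genes, with values from -0.56 for Pgk1 to 0.43 for P4ha1 and 0.50 for Hk2. The part of chromosome copy number in the members' levels was not tested.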

How the data were processed

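The authors deposited MAS5 intensity values from Affymetrix Expression Console, per the submitters' processing notes; labelled cRNA was made from 5 ug of total RNA, per the labels' protocols. The array's annotation named 1 gene for 20380 of 22690 probe sets (691 named several), updated by gene ID to RefSeq symbols. From these, log2(intensity + 5) was computed for the brightest probe set of each gene. Genes over the 40th percentile of all values (74.6) on 10 or more arrays were tested.

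All 80 arrays entered 1 fit in limma 3.58.1 (R 4.3.3) with genotype as groups, the label number as a random block (correlation 0.159) and robust, trended variances; p-values were adjusted by Benjamini-Hochberg over 8766 genes. Correlations were Pearson's r, with permutation tests for the fixed pairs only. Named genes were all members, the pathway genes of lowest p or a stated role, and the 10 most and 5 least alike genes. The members, lists and tests were chosen with earlier results of these data known. Alternatives changed the pseudocount, filter, scaling, probe set rule, block and 1 array. No depth applies to arrays; their number limits the precision. Promoters came from RefSeq (GRCm38.p6).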

Additional observations from a re-analysis of the deposited data

How the results depend on the processing

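Under each of 8 alternatives (pseudocount 1 or 32, no filter on low values, quantile normalization, mean of all probe sets, no block, 1 mean per label number, without E2F1 null replicate 6), 0 members were called in any of the 7 tests, and the lowest adjusted p of a member in a pairwise comparison was 0.251. Members below wild type in E2F1 null tumours numbered 25 to 27. Of 180 member differences, 27 changed sign under some alternative, none larger than 0.14 in size, and for 7 the fitted value and the difference of plain means had opposite signs, with fitted sizes up to 0.03. Those of E2F1 null against wild type that did were Hif1a (-0.0049 with no block, -0.072 without E2F1 null replicate 6), Plod2 (0.0013 with 1 mean per label number), and, without E2F1 null replicate 6, Aldoc (0.058) and Slc2a3 (-0.0068).

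Counts of all genes called moved by over 1.5 times as follows. For E2F1 null against wild type they rose from 4 to 7 with the mean of all probe sets. For E2F1 null against E2F2 null they went from 14 to 7, and for E2F1 null against E2F3 heterozygous from 7 to 3, with 1 mean per label number. For E2F2 null against E2F3 heterozygous they went from 3 to 5 with the mean of all probe sets or no block and to 1 with 1 mean per label number, and over the 4 genotypes from 13 to 8 with quantile normalization or 1 mean per label number. The cause was not tested.

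Of the 10 fixed pairs, 6 passed for r, 9 over all 80 tumours, where Egln1 and Egln3 (r = 0.29), Slc2a1 and Slc2a3 (0.29) and Hif1a and Vegfa (0.25) were added, and 7 with quantile normalization (Slc2a1 and Slc2a3, 0.34) or without the 2 farthest points (Hif1a and Vegfa, 0.31). No paired analysis was possible because the genotypes share no label number and the replicate numbers only name the tumours.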
